A study of Homo sapiens with 10 samples.

Results

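The human mitochondrial genome carries 37 genes, 13 for mRNAs, 2 for ribosomal RNAs and 22 for transfer RNAs. They were taken from the count table of the series as the rows whose GENCODE symbol starts with MT- on the mitochondrial chromosome, which gave 37 of 55841 rows. All 37 were counted in every library and passed the filter on low counts, among 25479 genes tested. RNA was sequenced from human embryonic stem cells of the line labelled HES9, grown in mTeSR1 medium on Matrigel without feeder cells. The general population was not sorted, whereas HHH cells were sorted for the highest levels of the surface antigens EPCAM, GCTM-2 and CD9. Every HHH library was sorted and no general library was, so sorting itself cannot be told apart from the population. The labels place the libraries in batches, with 2 general libraries (replicates 1 and 2) and 2 HHH libraries (replicates 2 and 3) in batch 1, and 3 libraries of each population (replicates 1, 2 and 3) in batch 2. No label gives a genotype change, a time or a treatment for any of the 10 libraries, although the design text of the deposit mentions a protein kinase C inhibitor. All of them come from 1 cell line. Nothing says that replicates were separate cultures, so the p-values measure the spread between these libraries, which may be technical. The question was whether the sorted fraction differed from the general population in mitochondrial RNA. The study reported stronger staining for mitochondrial membrane potential and a higher oxygen consumption rate in HHH cells than in the general population. RNA levels do not measure either of these.

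Mitochondrial DNA has no introns, and both of its strands are transcribed into long RNAs that span many genes. The tRNAs lie between most of the other genes, and cutting them out of the long RNA releases the mRNAs and rRNAs on either side. The mRNAs code for subunits of respiratory complexes I, III, IV and V. The rRNAs and tRNAs serve only the ribosomes inside the organelle. All other proteins of the system, including the polymerase and the enzymes that cut and modify the RNA, come from nuclear genes. Levels of a bulk library cannot separate fewer cells of a kind from less RNA per cell.

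In the GENCODE 44 annotation of GRCh38, 12 mRNAs, both rRNAs and 14 tRNAs are on the + strand, and MT-ND6 and 8 tRNAs are on the - strand. The 5 tRNA genes with the most counts were all on the - strand, and MT-TA, MT-TN, MT-TC and MT-TY stand next to each other between MT-ND2 and MT-CO1. Their sequences are shown because these genes carried most tRNA counts and 2 of them differed in their change between the batches. They are read 5′ to 3′ on the - strand from the GENCODE transcripts, with the anticodon in capitals. MT-TA (alanine, chrM:5587-5655), MT-TN (asparagine, chrM:5657-5729), MT-TC (cysteine, chrM:5761-5826), MT-TY (tyrosine, chrM:5826-5891) and MT-TP (proline, chrM:15956-16023) read as follows.
MT-TA: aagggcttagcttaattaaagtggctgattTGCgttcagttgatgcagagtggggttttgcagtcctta
MT-TN: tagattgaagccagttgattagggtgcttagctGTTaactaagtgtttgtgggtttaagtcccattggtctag
MT-TC: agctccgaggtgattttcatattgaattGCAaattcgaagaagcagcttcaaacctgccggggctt
MT-TY: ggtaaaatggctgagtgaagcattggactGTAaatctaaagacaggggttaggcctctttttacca
MT-TP: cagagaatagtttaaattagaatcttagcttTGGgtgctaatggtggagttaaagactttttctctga

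Some mitochondrial genes share bases, and reads from the shared stretch cannot be given to 1 gene with certainty. MT-ATP8 and MT-ATP6, subunits of ATP synthase (complex V), overlap by 46 bases at chrM:8527-8572. The shared stretch is shown with the start codon of MT-ATP6 and the stop codon of MT-ATP8 in capitals.
MT-ATP8/MT-ATP6: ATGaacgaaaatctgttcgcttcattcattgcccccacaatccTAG
MT-ND4L and MT-ND4 share 7 bases, MT-TI and MT-TQ share 3 on opposite strands, and MT-TC with MT-TY and MT-ATP6 with MT-CO3 share 1. Whether the library kit or the counting kept the strand is not given in the sources used here. Reads of MT-ND6 and of the - strand tRNAs therefore cannot be told apart from antisense RNA of the long transcripts that cover them.

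Each library held 47242595 to 78503395 counts. The detection floor of 3 counts came to between 0.0459 and 0.0687 CPM (the counts of a gene relative to the total of its library, which was scaled by a TMM factor). Small nuclear and nucleolar RNAs took 2.71% to 4.97% of the counts in batch 1 and 0.418% to 0.727% in batch 2. Rows without a GENCODE match took 16.3% to 20.3% in batch 1 and 7.44% to 10.6% in batch 2. General batch 1 replicate 1 was the deepest library and was the highest of its batch in most mitochondrial genes.

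The mitochondrial genes together took 0.234% (95% exact Clopper-Pearson interval 0.233 to 0.235, which covers counting error only) to 0.407% (0.406 to 0.409) of the counts. In batch 2 the share was 0.377%, 0.399% and 0.407% in the general libraries and 0.309%, 0.312% and 0.262% in HHH. All 3 HHH libraries were therefore lower than all 3 general ones there. In batch 1 it was 0.398% and 0.267% in the general libraries and 0.234% and 0.334% in HHH, and the populations overlapped. The mRNAs followed the same order. They took 0.299%, 0.311% and 0.312% in the general libraries of batch 2 against 0.223%, 0.239% and 0.180% in HHH, or 0.307 ± 0.00692% against 0.214 ± 0.0304% (SD, n = 3 each). In batch 1 they took 0.254% and 0.182% in the general libraries and 0.152% and 0.248% in HHH. The tRNAs did not follow it. In batch 2 they took 0.0493%, 0.0540% and 0.0560% in the general libraries and 0.0526%, 0.0535% and 0.0604% in HHH, whereas in batch 1 both HHH libraries, at 0.0585% and 0.0588%, were below the general ones at 0.101% and 0.0663%. The share of rRNAs overlapped between the populations in both batches, from 0.0189% to 0.0437% over all libraries.

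**Figure D1:**
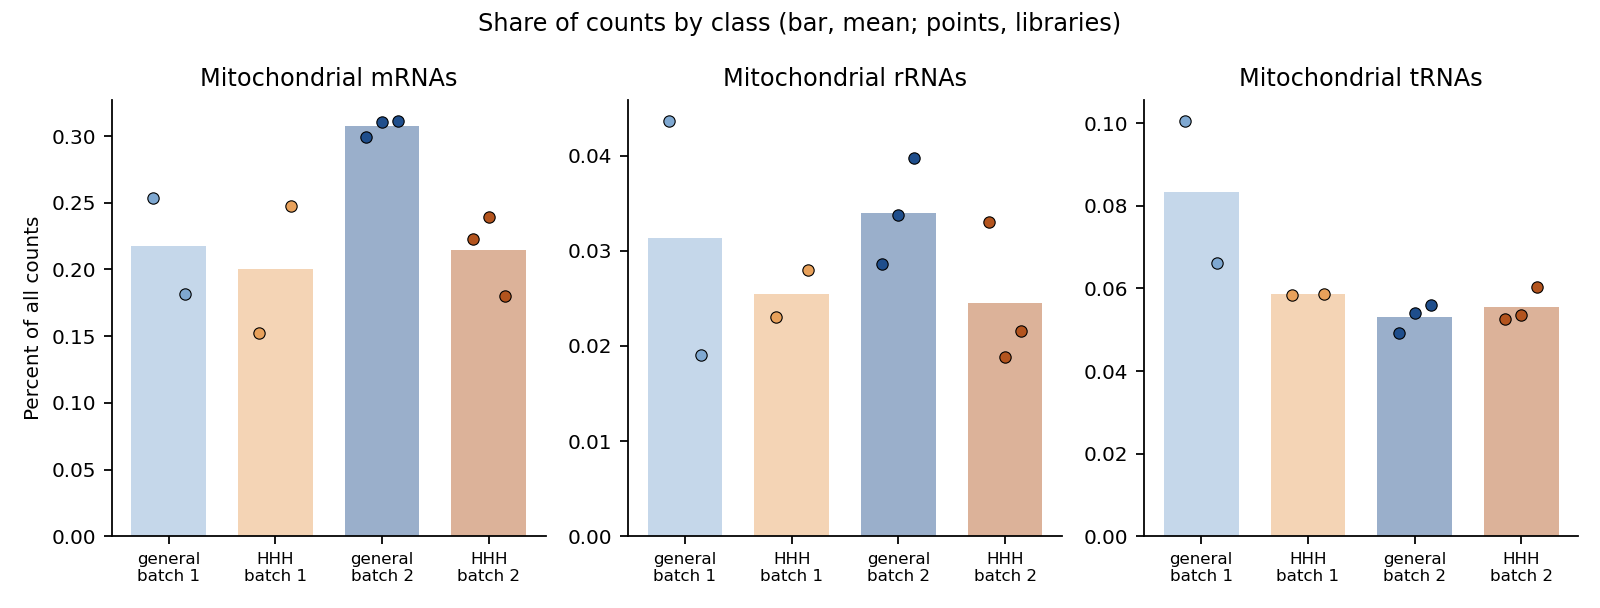
Percent of all counts in mitochondrial mRNAs, rRNAs and tRNAs, with a bar for the mean of each population and batch and a point for each library. The mRNA points of HHH in batch 2, from 0.180% to 0.239%, sit below the general ones from 0.299% to 0.312%, while the tRNA points of the 2 populations overlap there.

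Per length, the 37 genes differed by up to 1057 times in mean level, from 3.18 to 3365 RPKM (CPM per kilobase of gene). The tRNA genes are only 59 to 75 bases long, and their rows may hold fragments of neighbouring transcripts, which was not tested. Their values per length need not be levels of finished tRNAs. Only 10 genes had a mean of at least 100 RPKM, and these were MT-TC (3365), MT-TY (2237), MT-TP (1462), MT-CO3 (1303), MT-TN (1128), MT-TA (719), MT-CO1 (481), MT-CO2 (409.8), MT-ND3 (406) and MT-RNR2 (157). They included 4 of 13 mRNAs and 5 of 22 tRNAs. The other 27 ranged from 3.18 to 83.6 RPKM, with MT-TK (lysine) and MT-TD (aspartate) at the bottom. MT-TK had only 3 to 27 counts and MT-TD only 7 to 24 per library. Complex IV had the mRNAs with most counts. Its subunit mRNAs MT-CO1, MT-CO2 and MT-CO3 held 79.7% to 83.0% of the mRNA counts in batch 1 and 88.0% to 89.7% in batch 2. Complex I, with 7 of the 13 mRNAs, held 13.2% to 16.4% in batch 1 and 7.68% to 9.57% in batch 2. MT-TA, MT-TN, MT-TC, MT-TY and MT-TP together held 93.3% to 97.2% of the tRNA counts. Neighbours along the genome could be far apart, as MT-CO3 had 1303 RPKM and MT-ATP6, which overlaps it by 1 base, 44.8. The 2 rRNAs, products of the small (MT-RNR1) and large (MT-RNR2) ribosomal subunit genes, were at 48.9 and 157 RPKM, and the ratio of MT-RNR2 to MT-RNR1 counts ran from 3.47 to 6.06 in batch 1 and from 5.88 to 7.19 in batch 2. How the making of the libraries treated rRNA was not examined, so these values need not be rRNA levels in the cells.

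**Figure D2:**
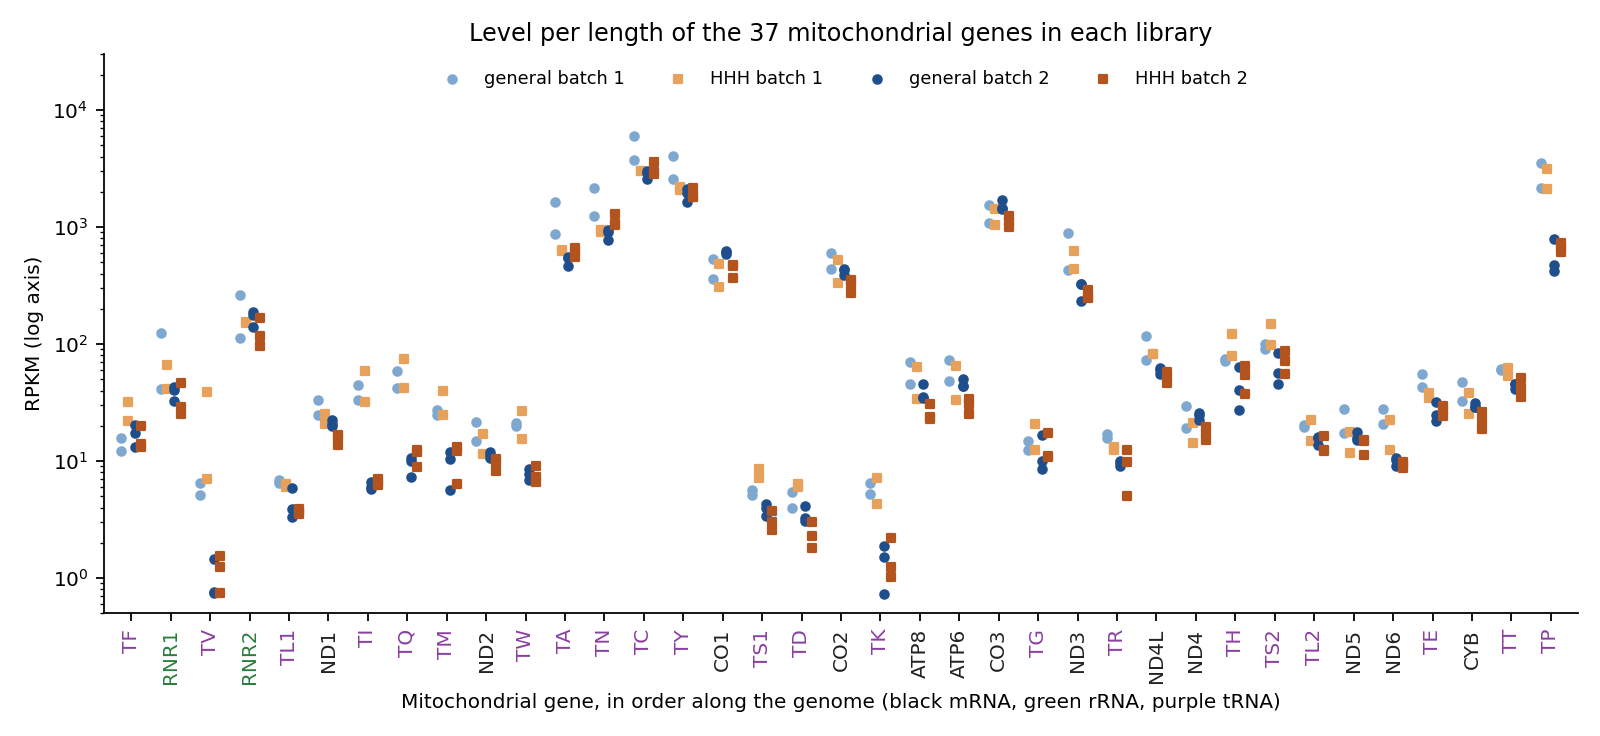
RPKM of the 37 mitochondrial genes on a log axis, in their order along the genome, with a point for each library. MT-TC at a mean of 3365 and MT-TY at 2237 stand beside MT-TS1 at 4.75 and MT-TW at 12.9, and MT-TV, MT-TI, MT-TQ, MT-TW and MT-TP are lower in batch 2.

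Copies of mitochondrial DNA lie in nuclear chromosomes, and reads that match both can be lost or assigned to the copy. Words of 50 bases were cut from each mitochondrial gene and looked up in the nuclear chromosomes of GRCh38. All words of MT-TA and MT-TN, 64.7% of those of MT-TC and 11.8% of those of MT-TY occurred on chromosome 1, whereas no word of MT-TP, MT-ND3 or MT-ND4L had a nuclear match. Among the other mRNAs the share with a nuclear match ran from 1.65% in MT-CYB to 50.6% in MT-CO1, and was 25.6% in MT-ND1 and 3.54% in MT-ND4. Annotated nuclear copies (377 rows) took 0.00163% to 0.00513% of the counts. The 3 with most counts, MTCO3P12, MTCO1P12 and MTATP6P1 on chromosome 1, had mean counts of 427, 384 and 173. Their log2 changes in HHH were -0.37 (adjusted p = 0.470), -0.60 (0.220) and -0.61 (0.0707), in the direction of the genes they copy. The part of nuclear copies in the levels was not tested.

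Over both batches, every one of the 13 mRNAs had a lower fitted level in HHH than in the general population, but only MT-ND1 and MT-ND4, subunits of complex I, passed the test of edgeR at an adjusted p under 0.05 over all genes. With the replicate number as a block, MT-CO1, MT-CO2, MT-ATP8, MT-ATP6 and MT-CYB were called as well, all lower, and MT-TV, higher. In batch 1 that block compares only replicate 2 of each population. General batch 1 replicate 1 and HHH batch 1 replicate 3 then add nothing to the comparison. Across all genes 3.58% were called lower and 1.86% higher. The log2 changes of the mRNAs ran from -0.49 (MT-ATP6) to -0.19 (MT-ND4L), with a median of -0.36 against 0.02 for all genes tested, and none passed 1.5-fold among those called. At an unadjusted p under 0.05 there were 10 of 13 mRNAs, against 20.6% of all genes. The mRNAs of a long transcript share their source and are not independent of each other. Neither rRNA passed the test of edgeR or had an unadjusted p under 0.05, with a log2 change of -0.38 (SE 0.245, adjusted p = 0.410) for MT-RNR1 and -0.36 (SE 0.188, adjusted p = 0.297) for MT-RNR2. None of the 22 tRNAs did in the test of edgeR, and 1 had an unadjusted p under 0.05. They ranged from -0.26 (MT-TA) to 1.49 (MT-TV), and 10 were negative. DESeq2 called MT-ND1, MT-ND4, MT-ATP6 and MT-CYB and no rRNA or tRNA. With no filter on low counts 12 members were called, 9 of them mRNAs.

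MT-ND1, a core subunit of complex I, stood at 33.4 and 24.9 RPKM in the general libraries and 20.9 and 25.1 in HHH in batch 1. In batch 2 it stood at 19.8, 20.8 and 22.5 in the general libraries and 16.0, 16.8 and 13.7 in HHH. HHH was lower than the mean of its batch's general libraries in 5 of 5 libraries, though the ranges overlapped in batch 1. The fitted level in HHH was 0.757 times the general one (log2 change -0.40, SE 0.0968, adjusted p = 0.0244). MT-ND4, another subunit of the membrane arm of complex I, stood at 29.5 and 19.1 RPKM in the general libraries and 14.3 and 21.1 in HHH in batch 1. In batch 2 the values were 25.5, 22.4 and 24.7 against 19.5, 16.9 and 15.2. It was lower in 5 of 5 HHH libraries and overlapped in batch 1 alone, with a ratio of 0.718 (log2 change -0.48, SE 0.125, adjusted p = 0.0376). MT-ND4L, which shares 7 bases with it, had a log2 change of -0.19 (adjusted p = 0.351). Both calls were lost when single libraries were left out. MT-ND1 had an adjusted p of 0.0513 to 0.0707 without general batch 1 replicate 1, HHH batch 1 replicate 2, HHH batch 2 replicate 1 or 3, or general batch 2 replicate 2 or 3. MT-ND4 had 0.0573 to 0.102 without general batch 1 replicate 1, HHH batch 1 replicate 2, HHH batch 2 replicate 2 or 3, or any general library of batch 2. Other libraries moved the count upward, to 9 members without HHH batch 1 replicate 3 (MT-TV and 8 mRNAs) and to 5, all mRNAs, without general batch 1 replicate 2.

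MT-ATP6, the proton channel subunit of ATP synthase, had the most negative log2 change among the mRNAs but did not pass the test of edgeR without the block. It stood at 73.3 and 48.8 RPKM in the general libraries and 33.3 and 65.3 in HHH in batch 1, and at 43.5, 43.8 and 49.9 against 33.7, 30.9 and 25.1 in batch 2. The populations were apart in batch 2 and overlapped in batch 1 (log2 change over both -0.49, SE 0.160, adjusted p = 0.0934). MT-ATP8, its overlapping partner, stood at 69.8 and 45.4 against 34.1 and 63.6 RPKM in batch 1. In batch 2 it stood at 35.0, 34.9 and 45.6 in the general libraries against 30.7, 23.8 and 22.7 in HHH, again without overlap.

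MT-CO3, a core subunit of cytochrome c oxidase (complex IV), was the mRNA with the highest level per length. It stood at 1542 and 1073 RPKM in the general libraries and 1034 and 1432 in HHH in batch 1, and at 1443, 1691 and 1435 against 1127, 1251 and 1004 in batch 2. All HHH libraries of batch 2 were below its general libraries, and the fitted change over both batches was -0.29 on the log2 scale (SE 0.124, adjusted p = 0.197). MT-CO1, the catalytic subunit, stood at 528 and 359.8 RPKM in the general libraries and 309 and 481 in HHH in batch 1, and at 612, 629.9 and 586 against 464, 475 and 366 in batch 2 (log2 change over both -0.36, adjusted p = 0.143). MT-CO2, which takes electrons from cytochrome c, stood at 596 and 436 against 333 and 523 RPKM in batch 1, and at 390.2, 437 and 429 against 322, 355 and 275 in batch 2 (log2 change over both -0.35, adjusted p = 0.118). The 3 mRNAs of complex IV thus shared 1 pattern, apart in batch 2 and overlapping in batch 1. MT-CYB, cytochrome b and the only mitochondrial mRNA of complex III, stood at 47.6 and 32.8 RPKM in the general libraries of batch 1 against 25.3 and 37.9 in HHH. In batch 2 it stood at 31.6, 28.9 and 29.0 against 26.2, 21.9 and 18.9. It was lower in 5 of 5 HHH libraries than the mean of their batch's general libraries (log2 change -0.39, SE 0.125, adjusted p = 0.0872).

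MT-ND3, a small subunit of complex I, had the highest level per length of its complex. It stood at 886 and 429 RPKM in the general libraries and 439.9 and 622 in HHH in batch 1, and at 233, 327 and 328 against 254, 289.6 and 249.8 in batch 2, overlapping in both. MT-ND2, a subunit of the membrane arm, stood at 21.8 and 14.9 against 11.6 and 17.1 RPKM in batch 1, and at 11.3, 12.0 and 10.7 against 10.3, 9.74 and 8.23 in batch 2, apart there (log2 change over both -0.30, adjusted p = 0.182). MT-ND5, the largest mRNA of complex I, stood at 27.8 and 17.5 against 11.6 and 17.6 RPKM in batch 1, and at 17.9, 15.1 and 15.7 against 14.8, 15.2 and 11.2 in batch 2. Its lowest general and highest HHH libraries were close in both batches (log2 change over both -0.40, adjusted p = 0.136). MT-ND4L, a short subunit of the membrane arm, stood at 117 and 73.4 against 82.3 and 82.6 RPKM in batch 1, and at 55.1, 59.5 and 62.0 against 52.1, 58.0 and 46.3 in batch 2, overlapping in both. MT-ND6, the mRNA of the other strand, stood at 27.6 and 20.7 against 12.4 and 22.6 RPKM in batch 1, and at 10.3, 10.6 and 9.05 against 9.46, 9.82 and 8.64 in batch 2. Its log2 change was -0.25 (SE 0.149, adjusted p = 0.357), inside the range of the + strand mRNAs.

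MT-RNR2 stood at 262 and 113 RPKM in the general libraries and 152 and 154 in HHH in batch 1, and at 140.0, 176 and 189 against 168, 96.3 and 117 in batch 2. MT-RNR1 stood at 123 and 41.1 against 41.1 and 66.0 in batch 1, and at 32.9, 40.9 and 42.9 against 46.7, 25.0 and 29.0 in batch 2. HHH batch 2 replicate 1 lay among the general libraries of its batch in MT-RNR2 and above all of them in MT-RNR1. Their spread within a group was wide, with SDs of 105 and 58.1 RPKM in the general libraries of batch 1 (n = 2).

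Within batch 2 alone, 9 of 13 mRNAs had every HHH library below every general one, against 17.2% of all genes. These were MT-ND1, MT-ND2, MT-ND4, MT-CYB, all 3 mRNAs of complex IV and both of complex V. The log2 changes of the 13 ran from -0.61 to -0.10 with a median of -0.42. Only MT-ND1 was called by edgeR (ratio 0.737, log2 change -0.44, adjusted p = 0.0395), against 5.06% of genes called lower, while DESeq2 called MT-ND1, MT-ND4, MT-CO1, MT-CO3 and MT-ATP8. The edgeR call was lost, with an adjusted p of 0.0698 to 0.159, without HHH replicate 1 or 3 or any general library of batch 2. Without either HHH library of batch 1, which enters this fit through the shared spread, 7 members were called in batch 2 (MT-ND1, MT-ND4, MT-CO1, MT-CO2, MT-CO3, MT-ATP8 and MT-ATP6), and without either general library of batch 1, 3 were (MT-ND1, MT-ND4 and MT-TN). Libraries of batch 2 with the same replicate number had weakly correlated deviations (0.100 to 0.207). With that number as a block 9 members were called in batch 2. These were MT-ND1, MT-ND4, MT-CYB and the mRNAs of complexes IV and V, all lower, and MT-TN, higher. A fit of batch 2 alone called the same 9. Within batch 1 no mRNA was apart between populations and none was called by edgeR, while 4 had an unadjusted p under 0.05 against 16.7% of all genes and DESeq2 called 1 (MT-ND5). All 13 had a negative log2 change there too, from -0.63 to -0.08 with a median of -0.31. That direction rested on general batch 1 replicate 1 and HHH batch 1 replicate 2, since without the former 7 of 13 were negative, with a median of -0.03, and without the latter 8 of 13 were, with a median of -0.09. Over both batches, all 13 stayed negative without any 1 library. No mRNA differed in its change between the batches by the test of the difference itself, none had an unadjusted p under 0.05 in it, and DESeq2 called none.

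**Figure D3:**
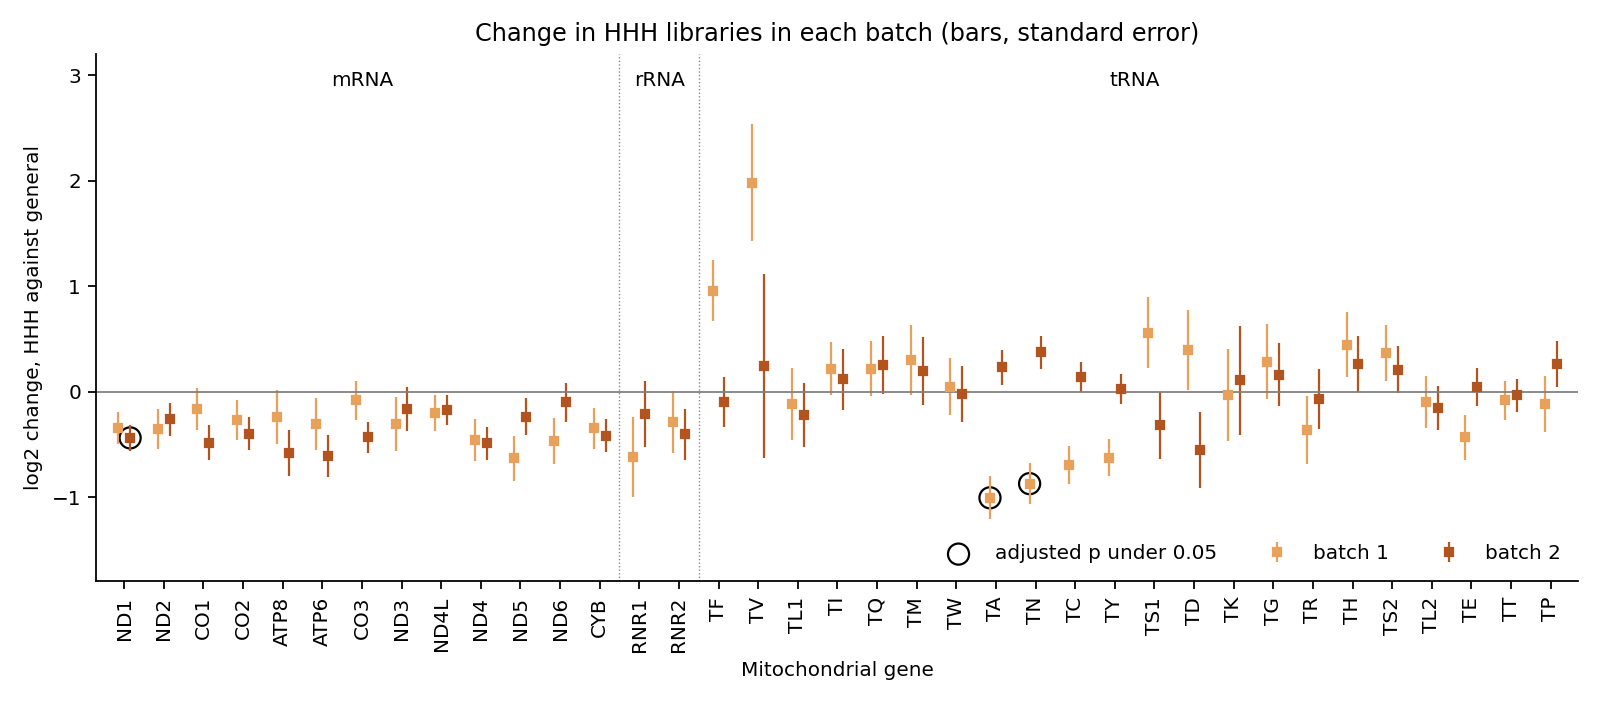
Log2 change of HHH against general in batch 1 and in batch 2 for each mitochondrial gene, with the standard error as a bar and a ring around changes with an adjusted p under 0.05. The mRNAs lie between -0.63 and -0.08 in both batches, while MT-TA, MT-TN, MT-TC and MT-TY are at -1.01 to -0.63 in batch 1 and 0.02 to 0.37 in batch 2.

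Among the clustered tRNAs of the - strand, MT-TA and MT-TN differed in their change between the batches. In batch 1, both HHH libraries were below both general ones in MT-TA, MT-TN, MT-TC and MT-TY. These were among 7 of 37 members in that position, a share near the 20.5% of all genes. MT-TA and MT-TN were called lower, against 0.966% of genes. MT-TA stood at 114 and 60.6 CPM in the general libraries and 42.8 and 43.9 in HHH (log2 change -1.01, SE 0.204, adjusted p = 0.0187). In batch 2 it stood at 37.5, 38.2 and 32.3 CPM in the general libraries and 42.9, 38.1 and 45.9 in HHH, with overlap. MT-TN stood at 157 and 90.5 against 65.9 and 69.3 CPM in batch 1 (log2 change -0.87, SE 0.193, adjusted p = 0.0298). In batch 2 it stood at 66.3, 68.7 and 56.9 CPM in the general libraries and 77.3, 76.1 and 94.9 in HHH, every HHH library above the general ones (log2 change 0.37, adjusted p = 0.149). The change differed between the batches for MT-TA (by 1.24 on the log2 scale, adjusted p = 0.0461) and MT-TN (by 1.24, adjusted p = 0.0375), against 0.687% of all genes. For MT-TC the difference was 0.83 (adjusted p = 0.109) and for MT-TY 0.65 (adjusted p = 0.167). MT-TC stood at 399 and 245 CPM in the general libraries of batch 1 and 197 and 201 in HHH, and at 171, 191 and 199.7 against 188, 194 and 235 in batch 2. MT-TY stood at 268 and 170.5 against 137 and 146 CPM in batch 1, and at 108, 128 and 138 against 119, 119.6 and 141 in batch 2.

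These calls rested on few libraries. The decrease of MT-TA in batch 1 shrank to -0.49 (adjusted p = 0.214) and that of MT-TN to -0.42 (adjusted p = 0.370) without general batch 1 replicate 1. They were also lost without HHH batch 1 replicate 2 (adjusted p of 0.0894 and 0.131), that of MT-TN also without HHH batch 1 replicate 3 (0.0572), and both in a fit of batch 1 alone or with a replicate block. The difference between the batches was no longer called for either gene without any 1 library other than general batch 1 replicate 2, with adjusted p from 0.0501 to 0.148. Without that library, MT-TC and MT-TY were called as well. With the replicate number as a block, only replicate 2 of each population is compared in batch 1. What that block gave for batch 1 and for the difference rests on 1 library of each population.

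**Figure D4:**
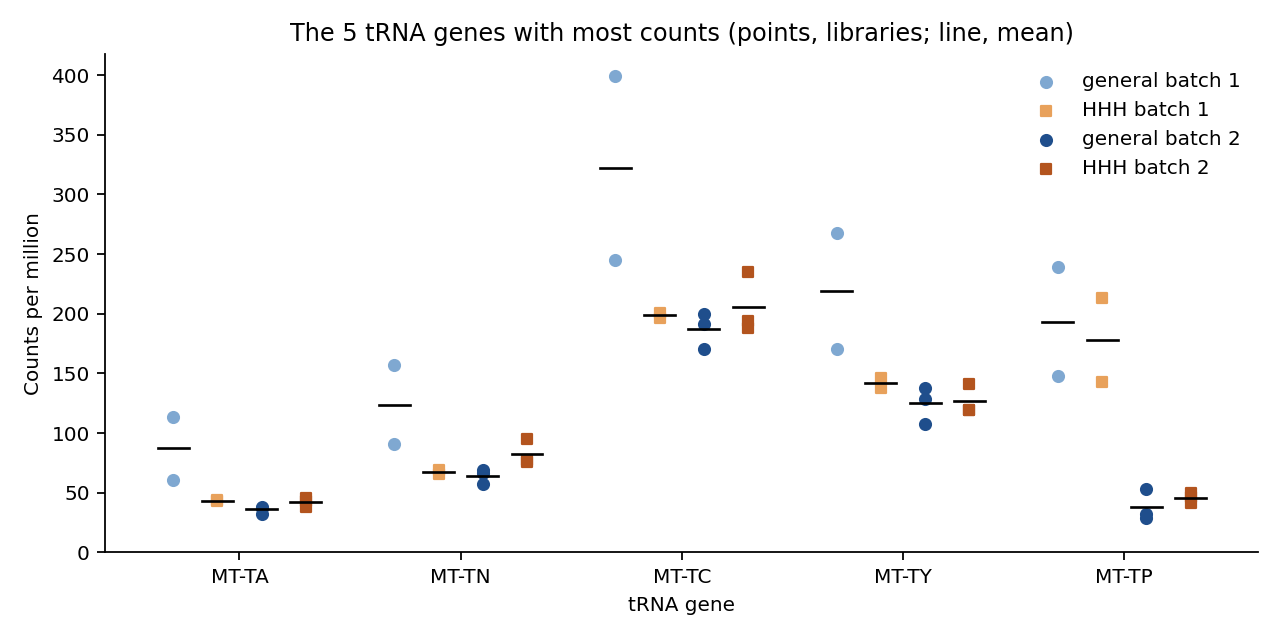
CPM of the 5 tRNA genes with most counts, with a point for each library and a line for the mean of each population and batch. In batch 1 the general libraries of MT-TA, MT-TN, MT-TC and MT-TY lie above HHH, and MT-TP lies at 143 to 239 CPM in batch 1 and at 28.7 to 53.5 CPM in batch 2.

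The other tRNAs gave no call between the populations in the test of edgeR, while DESeq2 called MT-TV higher in batch 1. MT-TV was also called over both batches with a replicate block, with no filter or without HHH batch 1 replicate 3. That block compares only replicate 2 of each population in batch 1. With no filter, MT-TF and MT-TV were called in batch 1. Of the 17 tRNAs besides these 4 and MT-TP, 6 had a negative log2 change over both batches, and the median was 0.09. In batch 1, all HHH libraries were above the general ones in MT-TF, MT-TV, MT-TS1, MT-TD and MT-TH (5 of 37 members against 22.8% of all genes), and below them in MT-TL1, MT-TR and MT-TE as well as the 4 above. In batch 2 MT-TD alone among the tRNAs had every HHH library below every general one, and MT-TN alone had every one above, against 17.8% of all genes. MT-TV (valine), with the largest change over both batches (1.49, SE 0.508, adjusted p = 0.106), rested on HHH batch 1 replicate 2, where it stood at 2.67 CPM against 0.0517 to 0.481 in the other libraries. MT-TV had 3 counts in its lowest libraries. MT-TH (histidine) and MT-TS2 (serine), which adjoin each other, followed a like order over the libraries. MT-TH stood at 5.16 and 4.96 CPM in the general libraries and 8.33 and 5.43 in HHH in batch 1, and at 1.88, 4.36 and 2.81 against 2.60, 4.48 and 3.78 in batch 2. MT-TS2 stood at 5.94 and 5.35 against 8.78 and 5.77 CPM in batch 1, and at 2.67, 4.90 and 3.32 against 3.27, 5.10 and 4.22 in batch 2. Neither had an unadjusted p under 0.05. MT-TK stood at 0.368 and 0.454 CPM against 0.301 and 0.504 in batch 1, and at 0.0517, 0.105 and 0.133 against 0.155, 0.0865 and 0.0709 in batch 2. MT-TD stood at 0.368 and 0.269 against 0.409 and 0.435 CPM in batch 1, and at 0.224, 0.210 and 0.282 against 0.206, 0.156 and 0.124 in batch 2.

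The batches differed more than the populations. Of the 37 genes, 28 were called lower in batch 2 than in batch 1 and none higher, against 23.3% of all genes called lower and 22.8% higher. They were 9 mRNAs, MT-RNR1 and 18 tRNAs. These levels used TMM factors of 0.832 to 0.925 in batch 1 and 1.03 to 1.19 in batch 2. As a plain percent of counts, the members took a mean of 0.308% in batch 1 and 0.344% in batch 2. The mRNAs took 0.209% and 0.261%, the rRNAs 0.0284% and 0.0292%, and the tRNAs 0.0711% and 0.0543%. The mean share of the mRNAs was thus higher in batch 2, unlike the calls of single mRNAs, though the libraries overlapped. The tRNAs had the largest differences, with MT-TV at 0.0854 times, MT-TI at 0.152 times, MT-TQ at 0.188 times and MT-TP at 0.225 times its level in batch 1. The ratio of MT-TV leaned on HHH batch 1 replicate 2, with 124 counts. The other libraries of batch 1 had 21 to 29 counts of MT-TV, and those of batch 2 had 3 to 6. MT-TP stood at 239 and 148 CPM in the general libraries of batch 1 and 213 and 143 in HHH, and at 32.4, 53.5 and 28.7 against 41.4, 46.1 and 49.7 in batch 2. Its populations overlapped in both batches. Among the mRNAs, MT-ND6 was at 0.467 times and MT-ND3 at 0.473 times its level in batch 1, whereas MT-CO1 (1.23 times, adjusted p = 0.0913), MT-CO3 (1.03 times) and MT-ND4 (0.984 times) were not called. The share of small nuclear and nucleolar RNAs, at least 2.71% in batch 1 and at most 0.727% in batch 2, moved with these differences, and its part in them was not tested. MT-TI (isoleucine) and MT-TQ (glutamine), which overlap on opposite strands, fell together. MT-TI stood at 2.22 to 4.03 CPM over the libraries of batch 1 and at 0.396 to 0.481 in batch 2, and MT-TQ at 3.04 to 5.40 and 0.531 to 0.904. With library size alone as the scaling, the median of all genes in this comparison moved from 0.01 to 0.35 on the log2 scale, and 13 members were called. MT-CO1 and MT-CO3 were then called higher in batch 2, so that their direction depends on the scaling, and the 11 others, MT-TV, MT-TI, MT-TQ, MT-TP, MT-ND3 and MT-ND6 among them, were lower.

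Nuclear genes for mitochondrial gene expression were described from a list of 67 genes, of which 66 were in the table. Over both batches none was called by edgeR, 13 had an unadjusted p under 0.05 against 20.6% of all genes, a share near that background, and DESeq2 called 3. The median log2 change was 0.10, and 10 of 66 were negative, so that the list lay on the other side of 0 from the 13 mRNAs. The genes closest to a call were REXO2, a nuclease for short RNAs (0.32, adjusted p = 0.0570), and ESRRA, a nuclear receptor that drives mitochondrial genes (0.23, adjusted p = 0.0517). In batch 1 the median was -0.01, with 33 of 66 negative and none called by edgeR, while 8 had an unadjusted p under 0.05 against 16.7% of all genes and DESeq2 called 1. In batch 2 it was 0.18, with 7 of 66 negative and 7 called higher, against 3.73% of all genes, and 36 of 66 had every HHH library above every general one, against 17.8%.

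The 7 called in batch 2 were TFB2M (0.43, adjusted p = 0.0389), the factor that opens mitochondrial promoters for the polymerase, SLIRP (0.47, adjusted p = 0.0325), which binds and stabilizes the mRNAs, FASTKD2 (0.41, adjusted p = 0.0237), an RNA-binding protein of the mitochondrial RNA granule, PRORP (0.31, adjusted p = 0.0479), which cuts tRNAs at the 5′ end, METTL15 (0.34, adjusted p = 0.0439), which methylates the small rRNA, REXO2 (0.40, adjusted p = 0.0441) and PPARGC1A (0.51, adjusted p = 0.0425), a coactivator of nuclear genes for mitochondria. SLIRP stood at a log2 change of 0.35 over both batches (adjusted p = 0.0652). LRPPRC, its partner in keeping the mRNAs stable, had -0.06 over both batches (adjusted p = 0.736) and 0.06 in batch 2. TFAM, which packs the DNA and starts transcription, had 0.14 over both batches (adjusted p = 0.470) and 0.32 in batch 2 (adjusted p = 0.0574). POLRMT, the RNA polymerase of the organelle, had 0.07 over both batches (adjusted p = 0.766) and -0.16 in batch 2. POLG and TWNK, the DNA polymerase and helicase that copy the genome, had -0.07 and 0.04 over both batches (adjusted p = 0.658 and 0.833). No gene of the list differed in its change between batches by the test of edgeR, where 18 had an unadjusted p under 0.05 against 18% of all genes and DESeq2 called 3. The count of 7 fell to 0 without HHH batch 2 replicate 3 or general batch 2 replicate 1 or 3, to 2 without HHH batch 2 replicate 2, and to 4 without HHH batch 2 replicate 1 or general batch 2 replicate 2, and it was 12 without either HHH library of batch 1. With the replicate number as a block it was 12 as well. With library size alone as the scaling, which moved the median of all genes in batch 2 to -0.09, none of the list was called there.

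Of the 22 genes for mitochondrial aminoacyl-tRNA synthetases and related enzymes, which load tRNAs with amino acids, 1 was called over both batches, MARS2 for methionine (log2 change 0.31, SE 0.0794, adjusted p = 0.0353), against 1.86% of all genes called higher. The median was 0.06, and 5 of 22 were negative. MARS2 was called without HHH batch 1 replicate 3 or HHH batch 2 replicate 3 but lost without any other 1 library. In batch 2 none was called in the test of edgeR, 9 had an unadjusted p under 0.05 against 26.2% of all genes, and DESeq2 called 3. The synthetases of the tRNAs shown above were not called by edgeR, and DESeq2 called CARS2 over both batches. Their edgeR values over both batches were -0.07 for AARS2 (alanine), 0.12 for NARS2 (asparagine), 0.20 for CARS2 (cysteine), 0.11 for YARS2 (tyrosine) and 0.02 for PARS2 (proline) on the log2 scale.

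**Figure D5:**
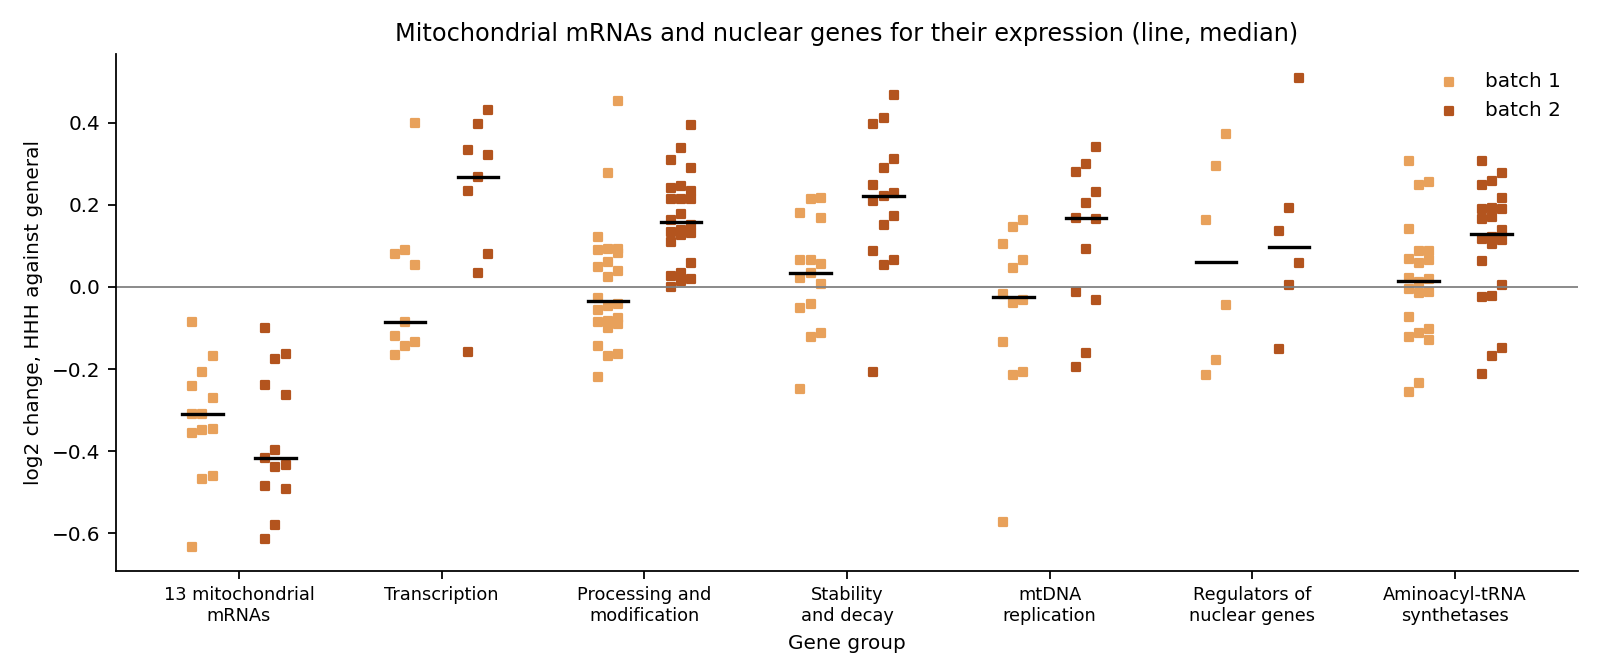
Log2 change of HHH against general in each batch for the 13 mitochondrial mRNAs, the groups of nuclear genes for their expression and the aminoacyl-tRNA synthetases, with a point for each gene and a line for the median. The mRNAs have medians of -0.31 and -0.42 in batches 1 and 2, and the nuclear list as a whole has -0.01 and 0.18.

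Markers of cell types differed between the populations in some sets only. Within both batches, summed neural genes were lower, and summed fibroblast or feeder genes higher, in every HHH library than in the general ones. The sums of pluripotency, mesendoderm and stress genes overlapped or changed direction between the batches. Of 9 neural genes, 6 were called lower in HHH over both batches, against 3.58% of all genes, and their summed level was 312 to 326 CPM in the general libraries of batch 1 against 279 to 286 in HHH, and 349.9 to 420.2 against 182 to 228 CPM in batch 2. None of them was at 0 in all libraries. The summed level of 8 pluripotency genes was 4709 to 5385 against 4623 to 4832 CPM in batch 1 and 5695 to 6207 against 6097 to 6307 in batch 2, with NANOG higher and SOX2 lower in HHH. Of 6 genes of fibroblasts or feeder cells, COL1A1 was lower and THY1 higher, and COL3A1, DCN and LUM were too low to test, with DCN at a mean of 0.00229 CPM. The sums were 259.6 to 273 CPM in the general libraries against 303 to 308 in HHH in batch 1, and 269 to 278 against 289 to 343 in batch 2. Of the 3 genes tested, 2 had a negative log2 change in each batch, so the higher sums do not stand for the set. Of 7 mesendoderm genes 3 were tested, and TBXT was called lower, whereas MIXL1 (0.33, adjusted p = 0.368) and FOXA2 (1.57, adjusted p = 0.161) had positive log2 changes. The sums were 0.766 to 1.48 CPM in the general libraries against 1.95 to 2.58 in HHH in batch 1, and 1.10 to 1.24 against 0.939 to 0.968 in batch 2. Of 10 stress and immediate early genes, EGR1 alone was called, lower, with sums of 177 to 187 against 198 to 205 CPM in batch 1 and 167 to 169 against 141 to 170.3 in batch 2. MALAT1, a nuclear long non-coding RNA, was lower in HHH in batch 2 (log2 change -0.59, adjusted p = 0.0198). The part of these differences in the mitochondrial values was not tested.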

How the data were processed

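Bulk RNA was sequenced from 10 libraries of 1 human embryonic stem cell line. The authors deposited whole-number counts per Ensembl gene, with no normalization. They also deposited log2 values, given here the unit score because a batch term had been subtracted, which made the batch means of each gene equal; these served as an alternative only. The submitters' processing notes name CASAVA 1.8.2, R 3.2.2, limma 3.26.9 and GRCh37 with no role; the aligner, the counter and its annotation are not given in the sources used here.

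Groups came from the sample titles. Of 55841 rows, 88.5% matched GENCODE 44 (GRCh38) by gene ID, which gave symbols, lengths and transcript sequences, and all coordinates above are of GRCh38. In R 4.3.3, genes were filtered with filterByExpr (minimum count of 10), scaled by TMM and tested with the quasi-likelihood test of edgeR 4.0.16, two-sided, over 25479 genes. Population was tested over both batches with batch as a term, and within batches and between them in a fit of 4 groups. Calls had a Benjamini-Hochberg adjusted p under 0.05, and those past 1.5-fold were counted beside them. The standard error was the log2 change divided by the root of its F statistic. CPM used the TMM-scaled library size. The script was tested on simulated data. Totals of 47242595 to 78503395 counts set the floor at 3 counts, and intervals and floors cover counting error only.

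Within batch 2, deviations from the group means over all genes were weakly correlated between libraries sharing a replicate number (0.207, 0.111 and 0.100). The pair of batch 1 had 0.0880, near the lowest of these. With 2 libraries a group, every pair of batch 1 has a correlation of that size. The labels do not say what a number stands for. The block was read as an alternative. Only replicate 2 is in both populations of batch 1. The block's results for batch 1 and for the difference between batches thus rest on 1 library of each population.

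Members, lists and comparisons were chosen with earlier results of these data known. Named were the members with the smallest adjusted p, the leading mRNA of each complex, overlapping genes, MT-ND6, the tRNAs with most and fewest counts and a set of nuclear genes; MT-ND2, MT-ND5, MT-CO1, MT-CO2, MT-TH, MT-TS2 and the other synthetases were added after their values were seen. MRM1 of the nuclear list had no row that matched. Alternatives were other scalings, library sizes, filters, a replicate block, no batch term, DESeq2 1.42.0, limma 3.58.1 on the deposited log2 values, batches alone and each library left out.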

Additional observations from a re-analysis of the deposited data

Results flagged for a closer look

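The change of MT-TA and of MT-TN in HHH differed between the batches by the test of the difference itself (edgeR quasi-likelihood test, Benjamini-Hochberg adjusted over all genes). The difference, batch 2 minus batch 1, was 1.24 on the log2 scale for MT-TA (adjusted p = 0.0461) and 1.24 for MT-TN (adjusted p = 0.0375). Leaving out any 1 library other than general batch 1 replicate 2 removed both calls, as described above. Each group holds 2 or 3 libraries, too few for a test of single libraries that stand apart.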

How the results depend on the processing

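All 13 mRNAs kept a negative log2 change over both batches in the 10 other settings and with each of the 10 libraries left out, whereas the number called depended on the setting. Over both batches (2 members called), the count was 1 with library size alone, 12 with no filter, 8 with a replicate block, 0 with no batch term, 4 with DESeq2 and 0 to 9 with 1 library left out. In batch 1 (2 called) it was 9 with no filter, 3 with a replicate block (MT-TF, MT-TV and MT-ND6, with MT-TA and MT-TN lost), 6 with DESeq2, 0 in batch 1 alone and 0 to 6 with 1 library left out, the highest without general batch 1 replicate 2. In batch 2 (1 called) it was 10 with no filter, 9 with a replicate block, 5 with DESeq2, 9 in batch 2 alone and 0 to 7 with 1 library left out. For the difference between batches (2 called) it was 1 with library size alone, 4 with no filter, 1 with at least 1 CPM in at least 2 libraries, 0 with a replicate block and 0 to 4 with 1 library left out. Between batches (28 called), library size alone gave 13, 11 of them lower. For the nuclear expression genes (0 called over both batches) the count was 3 with no filter, 3 with a replicate block, 3 with DESeq2 and 0 to 4 with 1 library left out. For the synthetases (1 called) it was 0 with library size alone, 0 with no batch term, 2 with DESeq2, 0 with limma and 0 to 2 with 1 library left out. In the last pair of lists the highest count was without HHH batch 1 replicate 3. The block left 1 library of each population, replicate 2, to compare in batch 1. Its counts for batch 1 and for the difference between batches rest on that pair. The causes were not tested. The log2 change of MT-TP over both batches turned from 0.11 to -0.024 with no batch term and to -0.0076 without general batch 2 replicate 3, in a range up to 0.26 with 1 library left out. Limma on the deposited values moved the median of all genes to -0.13 on the log2 scale. Over all genes, library size alone gave 250 higher and 846 lower calls over both batches against 474 and 911, limma gave 47 and 1112, and in batch 2 library size alone gave 299 and 1403 against 950 and 1289. Counts of 3 to 27 per library limit what can be said of the rarest tRNAs.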
